A study of Mus musculus with 9 samples.

Results

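The 10 genes that follow store, carry, import, export or sense iron and were measured in mouse brain after intracerebral haemorrhage. They are 10 of the 33586 entries of the deposited expression table, taken by symbol: the ferritin chains Ftl1 and Fth1, the exporter Slc40a1, the ferroxidase Cp, the carrier Trf and its receptor Tfrc, the metal transporters Slc11a2 and Slc11a1, and the iron sensors Ireb2 and Aco1. Total RNA from tissue beside the haematoma was sequenced in 9 libraries, 3 each of a control (C), an experimental (M) and an intervention (P) group. The haemorrhage was made by injecting collagenase, which digests the matrix of vessel walls, and the study's title names a treatment, a tetrahedral carrier of nucleic acid that bears miR-124. The labels do not state what each group received, whether the control had a haemorrhage, the strain, sex or age of the mice, the time of sampling, or whether each library is a separate animal. The p-values therefore measure only the spread between these libraries, which may be technical.

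Iron is toxic when free, since it drives the formation of radicals, and blood in the brain releases large amounts of it as haemoglobin is broken down. Cells take up iron bound to transferrin through the transferrin receptor, move it into the cytosol through the transporter DMT1 (Slc11a2), lock it in ferritin shells made of light and heavy chains, and release it through ferroportin (Slc40a1) with the help of a ferroxidase such as ceruloplasmin (Cp). The iron regulatory proteins IRP1 (Aco1) and IRP2 (Ireb2) bind hairpins in messenger RNA, called iron-responsive elements, when iron is scarce. Bound in a 5′ UTR they block translation, as for ferritin, and bound in the 3′ UTR of the transferrin receptor they protect the message from decay.

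The hairpins are shown because they place the members on opposite sides of this switch. In annotated UTRs (GENCODE M21, mm10), the loop CAGTGN was searched on the sense strand with a C 6 bases before it and 5 pairs in the stem beneath the loop, G-T pairs included. Such a hairpin occurred in the 5′ UTR of 0.14% of 19940 genes and in the 3′ UTR of 0.612% of 20745 genes. It was found in 4 members, 3 of them with it in the 5′ UTR. With 4 of the 5 pairs allowed, which holds for 0.878% of genes in the 5′ and 4.13% in the 3′ UTR, Slc11a2 had a hairpin in the 3′ UTR too. The sequences run 5′ to 3′ on the strand of the gene, with the loop in capitals:
Ftl1 5′ UTR: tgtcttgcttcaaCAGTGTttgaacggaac
Fth1 5′ UTR: tttcctgcttcaaCAGTGCttgaacggaac
Slc40a1 5′ UTR: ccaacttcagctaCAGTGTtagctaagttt
Tfrc 3′ UTR, site 1: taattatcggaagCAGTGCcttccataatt
Tfrc 3′ UTR, site 2: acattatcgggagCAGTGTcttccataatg
Tfrc 3′ UTR, site 3: tctatatcggagaCAGTGAtctccatatgt
Tfrc 3′ UTR, site 4: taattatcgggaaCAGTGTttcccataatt
Slc11a2 3′ UTR, 4 pairs: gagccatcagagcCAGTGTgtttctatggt

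In mm10 the Ftl1 hairpin lies at chr7:45459779-45459808 (minus strand), that of Fth1 at chr19:9982731-9982760 (plus strand) and that of Slc40a1 at chr1:45925465-45925494 (minus strand). The Tfrc hairpins lie on the plus strand between chr16:32631218-32631247 and chr16:32631709-32631738, in a 3′ UTR of 2461 bases. The Slc11a2 hairpin lies at chr15:100395153-100395182 (minus strand) and occurs in 1 annotated coding transcript, so that the gene value also covers forms without it. A match describes the sequence and does not show that a protein binds there, and gene values cannot show translation.

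Against control, 7 of the 10 members were higher in the experimental group, 1 was lower and 2 did not pass the test. Over the 14570 genes tested, 19.9% were higher and 17.3% lower at the same threshold. The libraries of both groups did not overlap in 9 of the 10 members, against 51.1% of all genes tested. The member counts here and below are descriptions, since the members were chosen with earlier results of these data known. Genes were tested where at least 3 libraries reached 1 FPKM (fragments per kilobase of transcript, scaled to the total of the library). All 10 members passed this filter, but Slc11a1, under 1 FPKM in every control library, passed only through the other groups. Its tests against control, and the counts that include it, are therefore descriptions. The test was limma on log2(FPKM + 1) with all 9 libraries, with Benjamini-Hochberg adjustment over all genes tested and a threshold of 0.05. Fold changes are on this scale and understate the change of low genes.

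Ftl1, the ferritin light chain that forms the mineral core, was at 119, 123 and 130.3 FPKM in the control libraries. It was at 768, 899.6 and 802 FPKM in the experimental and at 734, 587 and 484 FPKM in the intervention libraries. The 3 groups did not overlap, with control lowest and experimental highest. The log2 fold change was 2.72 ± 0.14 (SE) for experimental against control (6.58-fold, adjusted p = 8.02e-07). For intervention against control it was 2.25 ± 0.14 (4.76-fold, adjusted p = 5.08e-06). The intervention minus experimental difference was -0.47 ± 0.14 (95% interval -0.78 to -0.16), with an adjusted p of 0.256. By level, Ftl1 was the entry of rank 224 in control and of rank 27 in the experimental group.

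Fth1, the ferritin heavy chain that oxidises the incoming iron, started higher and moved less. It was at 517, 476 and 426 FPKM in control, at 811, 776 and 706 FPKM in experimental and at 886, 625 and 707 FPKM in intervention libraries. All control libraries lay below the others, while the experimental and intervention libraries overlapped. The log2 fold change was 0.69 ± 0.13 for experimental against control (1.62-fold, adjusted p = 0.00289) and 0.63 ± 0.13 for intervention against control (1.55-fold, adjusted p = 0.00702). Between intervention and experimental it was -0.06 ± 0.13 (95% interval -0.36 to 0.23, adjusted p = 0.951).

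**Figure D1:**
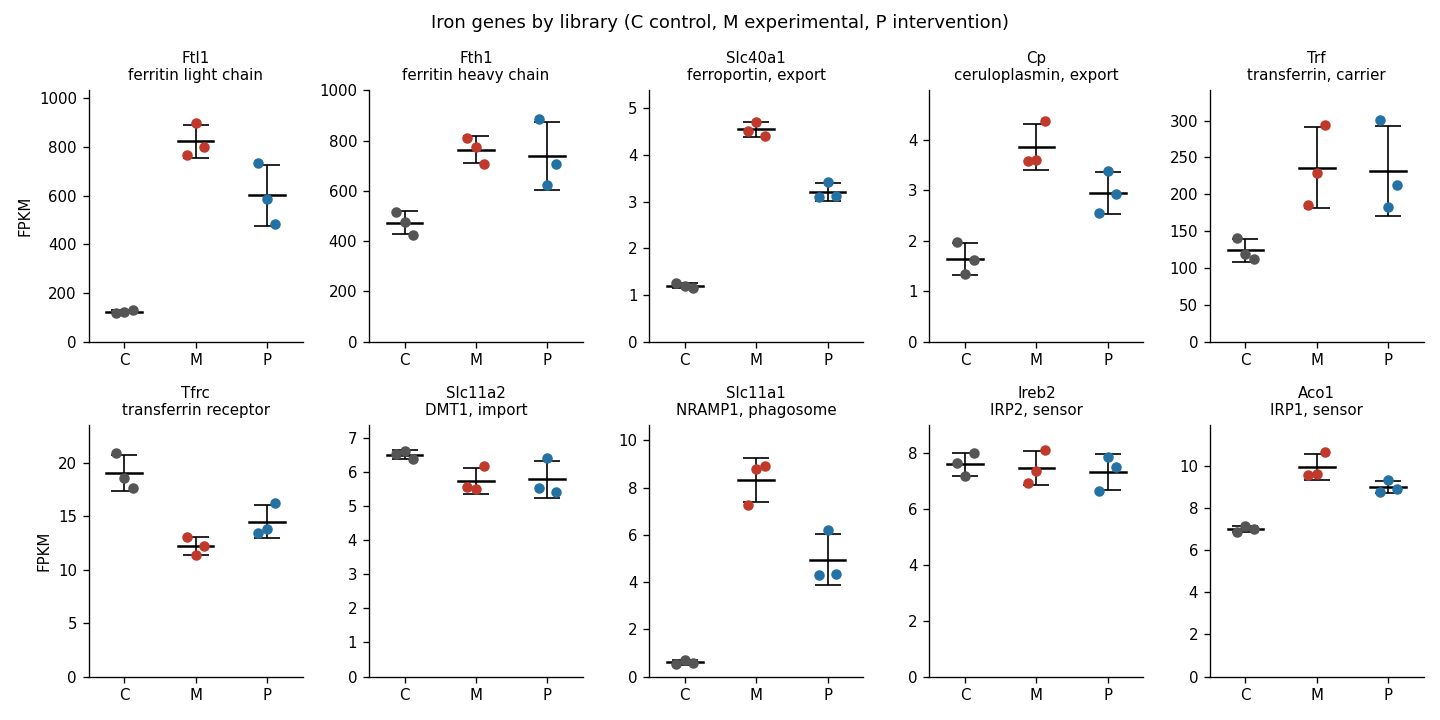
FPKM of each of the 10 iron genes (vertical axis from 0) in the 9 libraries by group, with points for libraries, long bars for the mean and whiskers for the SD (n = 3). Ftl1, Slc40a1 and Slc11a1 are lowest in control and highest in the experimental group, Tfrc shows the opposite order, and Ireb2 overlaps across the groups.

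The unequal change of the chains showed in their ratio. Ftl1 FPKM divided by Fth1 FPKM was 0.23, 0.259 and 0.306 in the control libraries. It was 0.946, 1.16 and 1.14 in experimental and 0.829, 0.94 and 0.686 in intervention libraries. The heavy chain message was thus the more abundant in all control and intervention libraries, and the light chain in 2 of 3 experimental libraries. Group means were 0.265 ± 0.0387, 1.08 ± 0.117 and 0.818 ± 0.127 (SD, n = 3 each). The log2 ratio was higher by 2.03 ± 0.15 (SE) in experimental and by 1.63 ± 0.18 in intervention than in control libraries, and lower by 0.41 in intervention than in experimental libraries (difference -0.41 ± 0.16). Each of these comparisons had no overlap and an exact permutation p of 0.1 (two-sided), the smallest that 3 against 3 libraries allow. Summed over both chains, ferritin messages were at 556 to 636 FPKM in control, at 1508 to 1676 FPKM in experimental and at 1191 to 1620.3 FPKM in intervention libraries.

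Ferritin genes have near-identical copies in the genome, among which reads can be split. Ftl1-ps1 was at 9.2 ± 1.15 FPKM in control, 51.4 ± 3.78 FPKM in experimental and 42.3 ± 4.85 FPKM in the intervention libraries, and Ftl2-ps at 2.13 ± 0.218, 13.3 ± 1.31 and 10.4 ± 1.48 FPKM. The entries Ftl1-ps2, Fth-ps2 and Fthl17a stayed under 1 FPKM in every library. With all entries whose symbols start with Ftl or Fth added to their parent chain, the ratio ran from 0.253 to 0.331 in control, from 1.02 to 1.25 in experimental and from 0.759 to 1.02 in intervention libraries. The light chain was then the more abundant in all experimental libraries and in intervention 2, unlike in the ratio of Ftl1 to Fth1 alone. How the authors' counting shared reads between these entries was not given in the sources used here, so that the levels of Ftl1 and Fth1 are uncertain. Copies under other symbols, if any, were not searched for, so that these ratios set no bound.

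**Figure D2:**
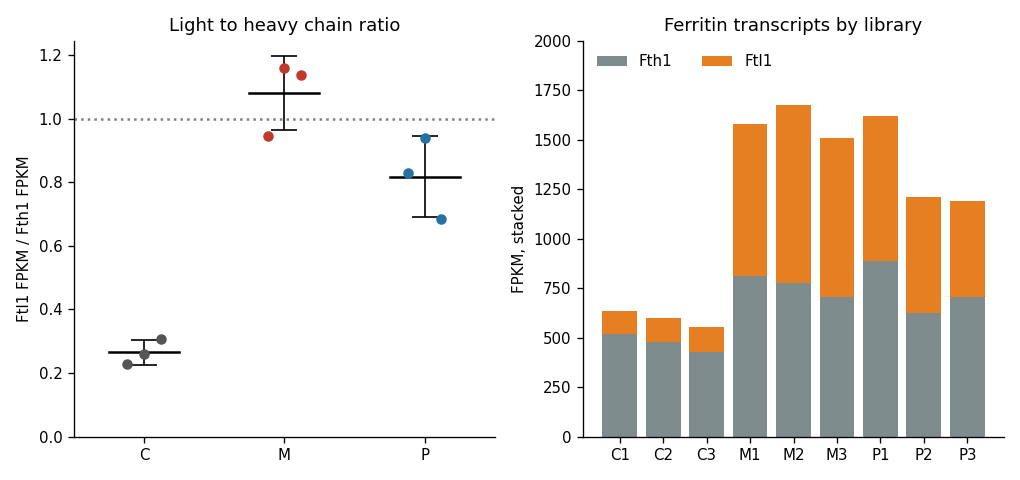
Left, ratio of Ftl1 to Fth1 FPKM per library (C control, M experimental, P intervention), with means and SD (n = 3) and a dotted line at equal levels; right, FPKM of both chains stacked for each of the 9 libraries. The ratio is 0.23 to 0.306 in control libraries and reaches 1.16 in the experimental group.

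The exporter and its partner rose as well. Slc40a1, ferroportin, the iron exporter of the cell membrane, was at 1.27, 1.19 and 1.15 FPKM in control, 4.52, 4.71 and 4.41 FPKM in experimental and 3.09, 3.43 and 3.11 FPKM in intervention libraries. The groups did not overlap, and the spread within each was small beside the steps between them. The log2 fold change was 1.33 ± 0.07 for experimental (2.52-fold, adjusted p = 8.67e-07) and 0.94 ± 0.07 for intervention against control (1.91-fold, adjusted p = 1.49e-05). Of the 10 members, Slc40a1 came closest to the threshold between intervention and experimental, at -0.40 ± 0.07 (95% interval -0.55 to -0.24, adjusted p = 0.0797). After quantile normalization this difference passed (adjusted p = 0.047).

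Cp, ceruloplasmin, the copper ferroxidase that loads iron onto transferrin, was at 1.96, 1.34 and 1.61 FPKM in control libraries. It was at 3.57, 3.59 and 4.37 FPKM in experimental and at 2.54, 3.38 and 2.92 FPKM in intervention libraries. Control, intervention and experimental libraries lay in that rising order without overlap. Cp rose 1.84-fold in the experimental (log2 fold change 0.88 ± 0.12, adjusted p = 0.000336) and 1.5-fold in the intervention group (0.58 ± 0.12, adjusted p = 0.00587).

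The carrier rose while the receptor fell. Trf, transferrin, which oligodendrocytes and the choroid plexus make in the brain, was at 141, 119 and 112 FPKM in control, 186, 229 and 295 FPKM in experimental and 300.3, 182 and 213 FPKM in intervention libraries. All 6 libraries of the latter groups lay above control, and they overlapped each other. The log2 fold change was 0.91 ± 0.20 for experimental (1.88-fold, adjusted p = 0.00724) and 0.87 ± 0.20 for intervention against control (1.83-fold, adjusted p = 0.0125). Its spread was the widest of the 10 members in both groups, with a coefficient of variation of 23.2% in experimental and 26.4% in intervention libraries.

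Tfrc, the transferrin receptor, was at 20.9, 18.6 and 17.6 FPKM in control libraries. It was at 13.03, 11.4 and 12.2 FPKM in experimental and at 13.4, 13.8 and 16.3 FPKM in intervention libraries. Here control was highest and experimental lowest, again without overlap between any groups. Tfrc fell by 0.60 ± 0.09 on the log2 scale in the experimental group (1.51-fold lower, adjusted p = 0.00103). In the intervention group it fell by 0.37 ± 0.09 (1.29-fold lower, adjusted p = 0.0178), a call that ended without control 1, intervention 1 or intervention 2 (adjusted p = 0.0662, 0.0649 and 0.0552).

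The metal transporters of the same family differed from each other. Slc11a2, DMT1, which carries iron out of endosomes, was at 6.52, 6.63 and 6.38 FPKM in control, 5.55, 5.49 and 6.18 FPKM in experimental and 5.54, 6.41 and 5.40 FPKM in intervention libraries. The experimental libraries lay below all control libraries, but the difference of -0.16 ± 0.08 did not pass (95% interval -0.33 to 0.02, adjusted p = 0.139). The intervention libraries overlapped control (-0.15 ± 0.08, adjusted p = 0.176). Rescaled to TPM (a scale on which each library has the same total), both differences passed (-0.33 and -0.31, adjusted p = 0.0251 and 0.0388).

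Slc11a1, NRAMP1, which pumps metal ions out of the phagosomes of macrophages, was the least abundant member in control. It passed the filter only through the other groups, so that its tests against control are descriptions. It was at 0.532, 0.697 and 0.555 FPKM in control, 7.25, 8.77 and 8.92 FPKM in experimental and 4.30, 6.18 and 4.32 FPKM in intervention libraries. The groups did not overlap. The log2 fold change was 2.54 ± 0.13 for experimental (5.83-fold, adjusted p = 7.76e-07) and 1.88 ± 0.13 for intervention against control (3.69-fold, adjusted p = 8.75e-06). With a pseudocount of 0.1 the same differences were 3.6 and 2.85, and those of Ftl1 2.73 and 2.26. The ratio of mean FPKM to control was 13.98 in the experimental group for Slc11a1 and 6.63 for Ftl1. Intervention minus experimental was -0.66 ± 0.13 (95% interval -0.95 to -0.37, adjusted p = 0.101).

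Of the sensors, Aco1 rose and Ireb2 did not pass. Aco1, the cytosolic aconitase that turns into IRP1 when it loses its iron-sulfur cluster, was at 6.86, 7.14 and 7.01 FPKM in control, 9.55, 9.61 and 10.6 FPKM in experimental and 8.75, 9.31 and 8.90 FPKM in intervention libraries. Again the groups did not overlap, with control lowest. It rose 1.37-fold in the experimental (0.45 ± 0.07, adjusted p = 0.000645) and 1.25-fold in the intervention group (0.32 ± 0.07, adjusted p = 0.00679), the second of which was lost when FPKM were rescaled to TPM (0.20, adjusted p = 0.105). Intervention minus experimental was -0.13 ± 0.07 (95% interval -0.28 to 0.02) and did not pass (adjusted p = 0.619). Ireb2, IRP2, whose protein is degraded when iron is plentiful, was at 7.63, 7.18 and 7.99 FPKM in control, 6.91, 7.35 and 8.11 FPKM in experimental and 6.63, 7.88 and 7.48 FPKM in intervention libraries. All groups overlapped, and the difference from control was -0.03 (95% interval -0.21 to 0.16, adjusted p = 0.834) in the experimental and -0.05 (95% interval -0.23 to 0.14, adjusted p = 0.706) in the intervention group.

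**Figure D3:**
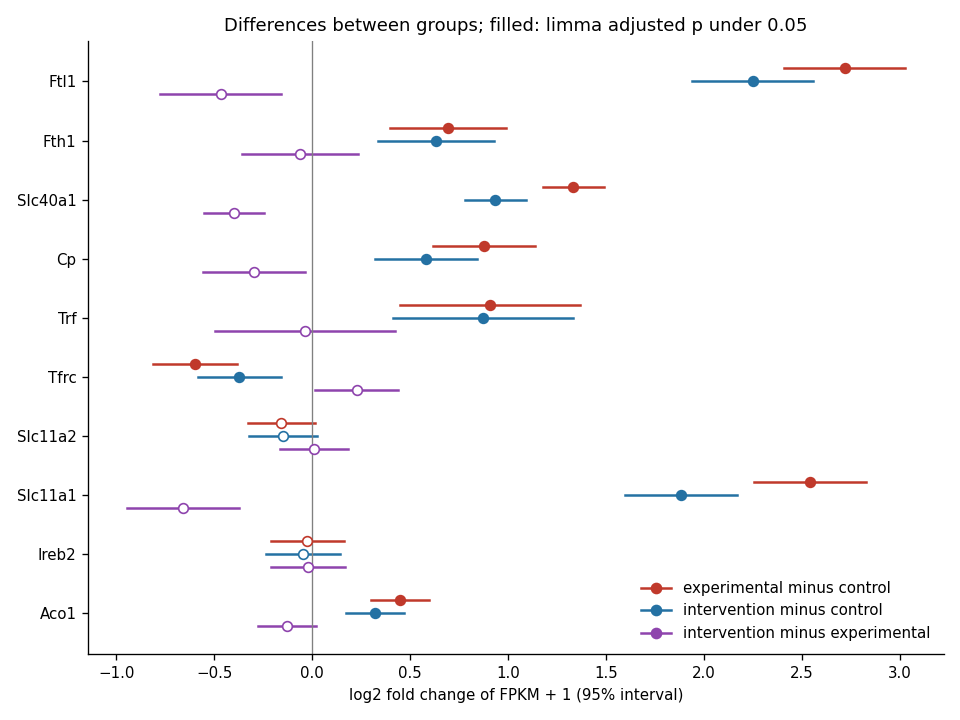
Log2 fold change of FPKM + 1 (horizontal axis) of each iron gene for the 3 comparisons, with 95% intervals from limma; filled points have an adjusted p under 0.05. Ftl1 and Slc11a1 lie farthest from control (2.72 and 2.54 in the experimental group), in an order that turns with a pseudocount of 0.1 (2.73 and 3.6) or with TPM (2.56 and 3.1), and no intervention minus experimental point is filled.

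Set side by side, the members with a hairpin in the 5′ UTR (Ftl1, Fth1 and Slc40a1) had higher message levels than control in both groups, and Tfrc, with 4 hairpins in the 3′ UTR, had lower levels. Trf, Cp, Slc11a1 and Aco1 held no such hairpin and were also higher. Slc11a2, with a hairpin of 4 pairs in the 3′ UTR, and Ireb2, with none, did not pass in either group on the FPKM scale. These are message levels, and whether the hairpins have a part in them was not tested. Per length, control libraries had Fth1 at the top, then Ftl1 and Trf with overlapping levels, Tfrc, Ireb2, Aco1, Slc11a2, Cp, Slc40a1 and Slc11a1. In the experimental group Ftl1 and Fth1 overlapped at the top (823 ± 68.4 and 765 ± 53.5 FPKM, SD, n = 3), and Slc11a1 stood above Ireb2 in all 3 libraries.

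Between intervention and experimental groups, limma called 0 of the 10 members and 0 of 14570 genes (0%), with 1352 genes (9.28%) at an unadjusted p under 0.05. The libraries of these groups did not overlap in 6 of 10 members, against 13.2% of all genes tested. Ftl1, Slc40a1, Cp, Slc11a1 and Aco1 were lower in every intervention library than in any experimental library, and Tfrc was higher. Against control, 7 members were higher and 1 lower in the intervention group, against 16.9% and 11.4% of all genes tested, and the libraries did not overlap in 8 members, against 44.1%. For the members called against control in both groups, the intervention minus control difference in FPKM was 56.3% of the experimental minus control difference for Slc11a1, 59.3% for Cp, 60.0% for Slc40a1, 66.6% for Tfrc, 67.7% for Aco1 and 68.4% for Ftl1. It was 91.3% for Fth1 and 95.9% for Trf. The comparisons share groups, so that these shares are descriptions. Hmox1, the enzyme that frees iron from heme, was at 2.3 ± 0.326 FPKM in control, 321.6 ± 42.5 FPKM in experimental and 200.5 ± 27.5 FPKM in the intervention libraries, a share of 62.1%.

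Other genes of iron handling were read from fixed lists. Of 9 tested iron reductases and other importers, 5 were higher than control in the experimental group and 0 lower, against 19.9% and 17.3% of all genes tested, with a median log2 fold change of 0.76 against -0.03. In the intervention group 5 were higher and 0 lower, against 16.9% and 11.4% of all genes tested, with a median of 0.48. Of these 9 genes, 4 (Lcn2, Steap4, Slc39a8 and Cybrd1) were under 1 FPKM in every control library and passed the filter only through the other groups, so that the counts and medians are descriptions. Lcn2, lipocalin 2, which binds iron-carrying siderophores, was at 0.197 ± 0.254 FPKM in control, 23.9 ± 2.31 FPKM in experimental and 17.1 ± 6.95 FPKM in the intervention libraries (adjusted p = 2.01e-06 and 9.44e-06 against control). The ferrireductases Steap3 (1.06 ± 0.0334 to 3.52 ± 0.558 FPKM in the experimental group, adjusted p = 3.45e-05) and Steap4 (0.251 ± 0.122 to 2.67 ± 0.528 FPKM, adjusted p = 7.56e-05) rose, as did the metal importer Slc39a8 (0.474 ± 0.0407 to 1.5 ± 0.0979 FPKM, adjusted p = 0.000233). Scara5 and Ltf were under the filter.

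Of the hepcidin axis and further ferroxidases, 6 of 11 genes were tested, and 2 were higher and 1 lower in the experimental group (median 0.20), against 19.9% and 17.3% of all genes tested. Hfe, a partner of the transferrin receptors, rose from 1.62 ± 0.269 to 5.89 ± 0.339 FPKM in the experimental (adjusted p = 3.41e-06) and to 5.26 ± 0.41 FPKM in the intervention group (adjusted p = 1.34e-05). Id1, a target of bone morphogenetic protein signalling, rose (0.50 ± 0.10, adjusted p = 0.00336), and the ligand gene Bmp2 fell (-0.31 ± 0.09, adjusted p = 0.0243). Smad6, an inhibitor of that signalling, was at 0.27 (adjusted p = 0.109). It was under 1 FPKM in every control library and passed the filter only through the other groups, so that the median is a description. The hepcidin genes Hamp and Hamp2 stayed under 1 FPKM in every library. In the intervention group Hfe and Id1 were higher and 0 genes of the list lower, against 16.9% and 11.4% of all genes tested. Rescaled to TPM, the list had 2 higher and 2 lower in the experimental group, and 1 of each in the intervention group. On that scale 2175 of all 14570 genes tested were higher and 4661 lower in the experimental group. The intervention group had 1706 higher and 3622 lower.

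Of 6 tested genes of cytosolic iron chaperones and ferritin turnover, 1 was higher and 2 lower in the experimental group (median -0.12), against 19.9% and 17.3% of all genes tested. Ncoa4, the receptor that delivers ferritin to lysosomes, rose by a log2 fold change of 0.23 (adjusted p = 0.0349). Fbxl5, the iron-sensing ligase subunit that marks IRP2 for degradation, fell by 0.22 (adjusted p = 0.0311), and so did Cisd1, an iron-sulfur protein of the outer mitochondrial membrane, by 0.29 (adjusted p = 0.0288). Its paralog Cisd2 was at -0.16 (adjusted p = 0.0861). In the intervention group 0 of the 6 passed in either direction. Rescaled to TPM, 0 were higher and 4 lower in the experimental group, against 2175 and 4661 of all 14570 genes tested. The intervention group had 0 higher and 3 lower, against 1706 and 3622.

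Of 13 genes of mitochondrial iron and iron-sulfur assembly, 1 was higher and 3 lower in the experimental group (median -0.08), against 19.9% and 17.3% of all genes tested, and 1 was higher and 2 lower in the intervention group, against 16.9% and 11.4%. Hscb, a cochaperone of cluster transfer, rose (0.63, adjusted p = 0.0015), while the assembly factors Isca1 (-0.31, adjusted p = 0.00628) and Lyrm4 (-0.46, adjusted p = 0.00996) were among those that fell. Rescaled to TPM, 1 was higher and 7 lower in the experimental group, against 2175 and 4661 of all 14570 genes tested. The intervention group had 1 higher and 5 lower, against 1706 and 3622. Of 3 tested further transcripts listed as targets of the iron regulatory proteins, Epas1, which encodes the hypoxia factor HIF-2 alpha, rose (0.78, adjusted p = 0.0107), while Cdc42bpa (-0.23, adjusted p = 0.0657) did not pass, and 0 were lower. In the intervention group Epas1 was higher (0.57, adjusted p = 0.0493) and 0 were lower. Rescaled to TPM, 1 was higher and 2 lower in the experimental group, and 0 and 1 in the intervention group, beside the same counts over all genes.

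**Figure D4:**
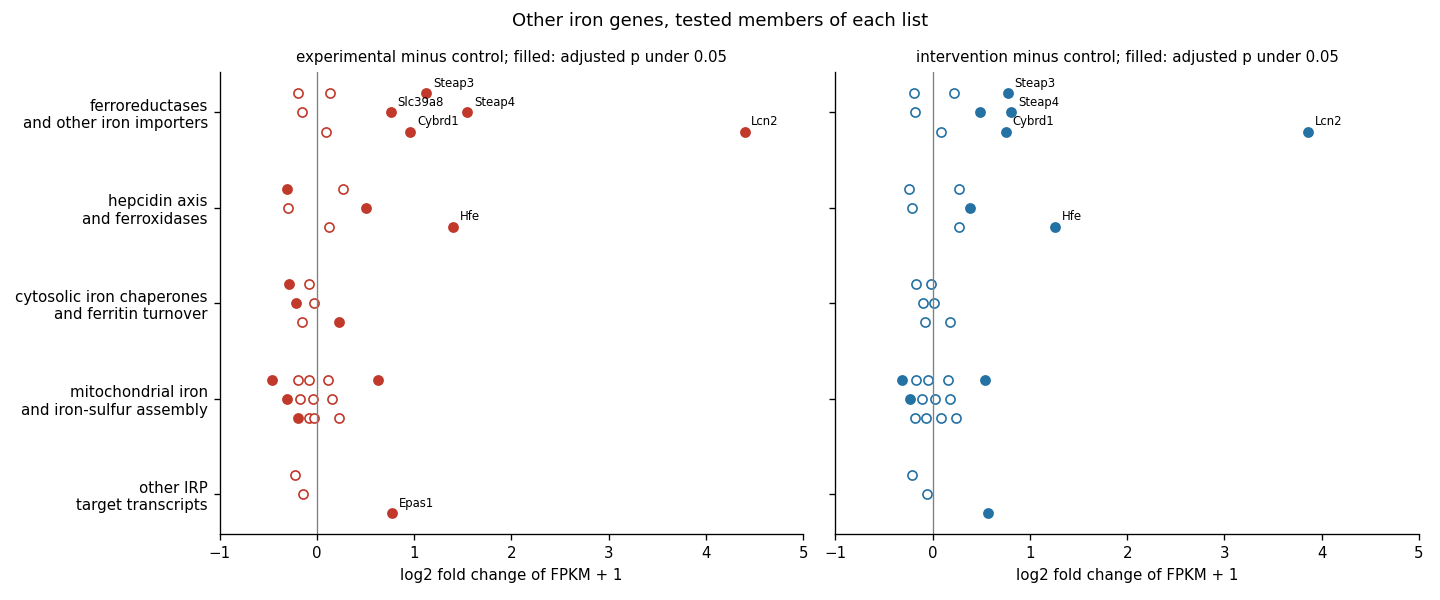
Log2 fold change of FPKM + 1 against control for the tested genes of 5 further iron lists, 1 point per gene, in the experimental (left) and intervention group (right); filled points have an adjusted p under 0.05, and vertical offsets only separate points. Lcn2 lies farthest from 0 (4.40 and 3.86), and among the mitochondrial genes Hscb is at 0.63 in the experimental group.

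The patterns over the 9 libraries were also matched to other genes, as a description in which the separation of the groups sets much of each correlation. Among 4388 genes with a mean of at least 10 FPKM, Ftl1 was most like Arpc1b (Pearson r = 0.998), Rnase4 (0.998) and Clic1 (0.997). Slc40a1 and Slc11a1 shared Sgpl1 (0.994 for both) and Lgals3 (0.992 and 0.993) among their 3 nearest genes, and their remaining nearest genes were Adgre1 (0.991) and Vsir (0.995). Aco1 was most like Itgam (0.991), Add3 (0.99) and Fn1 (0.99), and Cp most like Kctd12 (0.987), Itgb1 (0.986) and Picalm (0.985). Trf was most like Klk6 (0.978), Gsn (0.977) and Apod (0.975), and Fth1 most like Rhog (0.981), Id3 (0.978) and Rpl10-ps3 (0.976). The genes most like Tfrc included Scn1a (0.986) and Slc38a2 (0.979), which encode a sodium channel and an amino acid transporter. Slc11a2 (up to 0.946, for Ywhaq-ps3) and Ireb2 (up to 0.957, for Copa) had weaker matches.

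Marker genes of several cell types moved with the members, and in bulk tissue fewer cells of a type and less RNA per cell cannot be told apart. The summed level of 8 macrophage and monocyte markers was 12.96 to 13.4 FPKM in control, 283 to 308.5 FPKM in experimental and 149.5 to 204 FPKM in intervention libraries, and all 6 tested markers were higher than control in both groups, 3 of them (Lgals3, Msr1 and F13a1) having passed the filter only through those groups. The 6 microglia markers summed to 107 to 121 FPKM, 458 to 569 FPKM and 383 to 445 FPKM, with 6 of 6 higher in both groups. The 6 endothelial markers summed to 43.0 to 45.5 FPKM, 99.2 to 114 FPKM and 76.5 to 82.6 FPKM, and 6 and 5 of them were higher. Astrocyte markers summed to 223 to 247 FPKM, 691 to 1007 FPKM and 657 to 769 FPKM, and 5 of 6 were higher in both groups. Neuron markers fell in 5 of 6 cases in the experimental group and 4 of 6 in the intervention group, from 783 to 805 FPKM in control to 505 to 558 FPKM and 587 to 598 FPKM. Over all genes tested, 19.9% were higher and 17.3% lower in the experimental group, and 16.9% and 11.4% in the intervention group. The part of the marker shifts in the member results was not tested.

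Markers of oligodendrocytes and choroid plexus are given beside Trf and Fth1, and their part in these results was not tested. The 8 oligodendrocyte markers summed to 1186 to 1435 FPKM in control, 1549 to 1768 FPKM in experimental and 1402 to 2264 FPKM in intervention libraries. Of these 8, 2 were higher in the experimental group, Cldn11 among them, and 3 in the intervention group, among them Cldn11 and Mobp. Beside these and the counts that follow, 19.9% of all genes tested were higher and 17.3% lower in the experimental group. The shares in the intervention group were 16.9% and 11.4%. Within each group, the library with the most Trf (control 1, experimental 3 and intervention 1) also had the highest oligodendrocyte sum. For Fth1 this held in control and intervention, while experimental 3 had the lowest Fth1 of its group. The 7 choroid plexus markers ranged from 213 to 1186 FPKM over the libraries with 0 called in either direction. In this sum the library with the most Trf was the highest of its group in control (914 FPKM), the middle one in experimental (753 FPKM) and the lowest in intervention (213 FPKM). Of the red blood cell markers, 0 of 4 tested passed in the experimental group and 4 were lower in the intervention group, with sums of 50.2 to 141.6 FPKM in control, 38.6 to 61.0 FPKM in experimental and 27.5 to 38.9 FPKM in intervention libraries. Control 2 was the library highest in red blood cell and neutrophil markers (S100a9 at 4.45 FPKM, against 0.282 and 0.162 FPKM in the other control libraries). Of the neutrophil markers, 2 of 6 were tested, 1 was higher in the experimental group and 0 in the intervention group. None of the markers in these lists was at 0 in all 9 libraries.

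**Figure D5:**
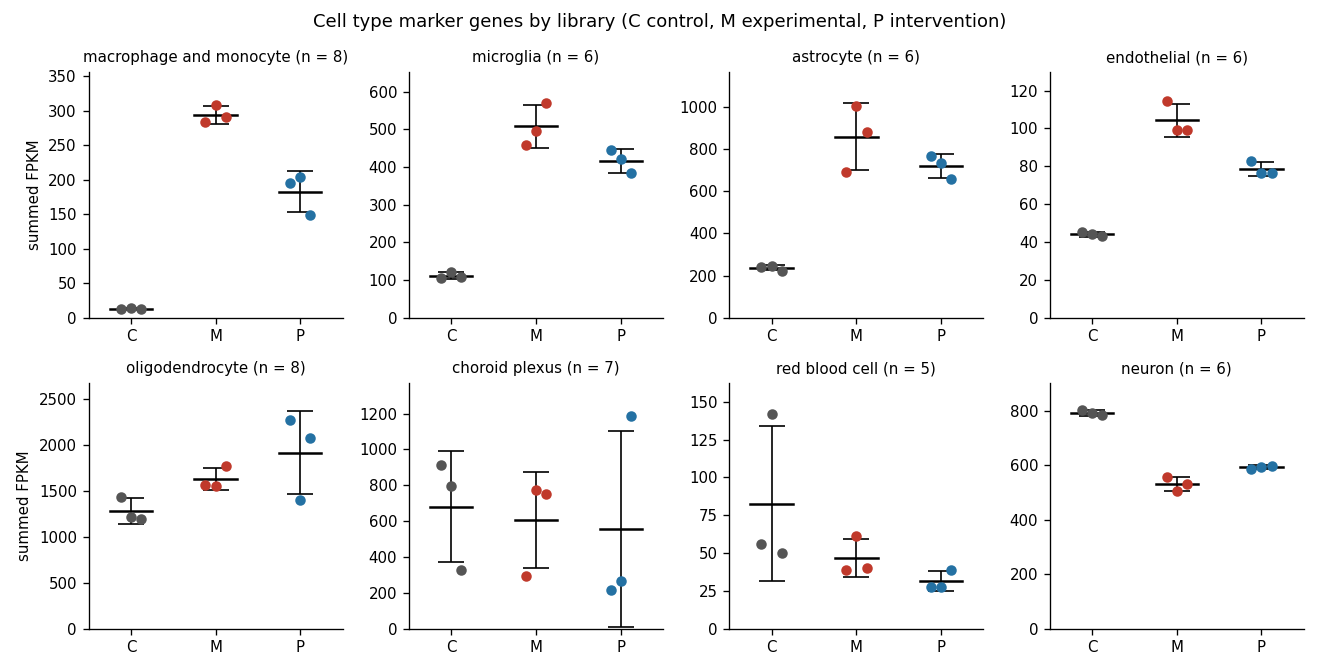
Summed FPKM (vertical axis from 0) of the marker genes of 8 cell types per library, with means and SD (n = 3); n in each heading is the number of genes summed. Macrophage and microglia sums are lowest in control and highest in the experimental group, neuron sums show the opposite order, and choroid plexus sums vary from library to library in all groups.

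Facts of the whole table bear on these values in scale. The sum of FPKM over all entries ran from 303394 to 305225 in control and from 326857 to 351195 in the other libraries, and 13408 to 14260 entries per library reached 1 FPKM. The table gives no counts. Low FPKM values of genes with 1 transcript were multiplied by length in kilobases, and the commonest product was 0.0502 to 0.0644 by library. If this step is 1 fragment, it would make 15500000 to 19900000 fragments a library. Since the experimental and intervention libraries have higher sums, rescaling to TPM lowers their values relative to control. The median log2 fold change of all genes tested was then -0.18 and -0.15 against control, in place of -0.03 and -0.003. TPM values are also larger than FPKM here, so that the pseudocount of 1 weighs less on low genes. In the experimental group the difference of Slc11a1 thus went from 2.54 to 3.10, and that of Ftl1 from 2.72 to 2.56. The split of calls then changed from 2894 higher and 2521 lower to 2175 and 4661 in the experimental group, and from 2461 and 1659 to 1706 and 3622 in the intervention group. Under this scaling 7 members were higher and 2 lower in the experimental group, and 6 and 2 in the intervention group.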

How the data were processed

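Gene expression was measured by RNA sequencing in 9 libraries. Per the labels' protocols, a Qiagen RNeasy kit and a SMARTer mRNA-seq library kit were used. The authors deposited FPKM, 1 value for each gene in each library, per the file headers. The build was mm10, per the submitters' processing notes. Aligner, counting tool and annotation were not given in the sources used here. Groups were taken from the sample titles. All 14570 genes with at least 1 FPKM in 3 or more libraries were fitted together on log2(FPKM + 1) in limma 3.58.1 (R 4.3.3), with group means, a trend of the variance with intensity, and 6 residual plus 3.53 prior degrees of freedom, and the fit was tested on simulated data. Values are mean ± SD over 3 libraries and log2 fold changes ± SE. Ratios were compared with an exact permutation test. Hairpins were searched in GENCODE M21 transcripts. The members and lists were chosen with earlier results of these data known. Named are the 10 members, up to 4 genes per list by smallest adjusted p for experimental against control, and the 3 genes most like each member in a set with a mean of at least 10 FPKM. A few genes that this rule takes in are not reported here. Precision rests on 3 libraries a group, since no counts were used. The alternatives are described in the closing section.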

Additional observations from a re-analysis of the deposited data

How the results depend on the processing

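Each of the 30 member differences was recomputed under 15 other settings (pseudocount, filter, TPM, quantile normalization, 6 libraries in the fit, replicate block, and each library left out). Of these 450 values, 443 kept their direction, where called, and their side of the threshold, 4 fell short of it and 3 newly passed, and 0 called values reversed. The 7 exceptions concern Slc11a2 (TPM), Aco1 against control in the intervention group (TPM), Slc40a1 between intervention and experimental (quantile normalization) and Tfrc against control in the intervention group (3 left-out libraries), and their cause was not tested. With quantile normalization, 35 genes and 1 member passed between intervention and experimental, instead of 0. With 1 library left out, that comparison gave 0 to 1 genes, experimental against control 4292 to 5486 genes and 8 members, and intervention against control 2668 (without intervention 1) to 3950 genes and 7 to 8 members. The difference in log2 ratio of Ftl1 to Fth1 then ran from 1.93 to 2.14, from -0.51 to -0.29 and from 1.52 to 1.75 for experimental minus control, intervention minus experimental and intervention minus control. Same-numbered libraries did not deviate together (correlations of -0.536 to 0.209), and a fit with the replicate block called 4702, 0 and 3251 genes and 8, 0 and 8 members. Differently numbered libraries of different groups had correlations from -0.534 (control 3 and experimental 1) to 0.493 (control 3 and intervention 2). The source of these shared deviations was not tested, and the main fit has no term for them. Depth is unknown beyond the steps of low values, which limits the reading of genes near 1 FPKM such as Slc11a1 in control.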
